A study of Mus musculus with 12 samples.

Results

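The 6 Siglec receptor genes Siglech, Cd33, Siglece, Cd22, Siglec1 and Siglecg were taken by symbol out of the 31054 features counted in the treated libraries, and their levels were followed across 12 single-cell RNA libraries of mouse brain and blood. Siglecs are cell-surface receptors of the immunoglobulin superfamily that bind sialic acid, the sugar that caps most glycans on mammalian cells. Many carry an inhibitory tyrosine motif (ITIM) in the cytoplasmic tail that recruits phosphatases such as Ptpn6 and dampens activation, whereas others lack it and pair with the activating adaptor Tyrobp (DAP12) or serve mainly in adhesion. Brain macrophages meet sialic acid on neurons, glia and their own surface, and Siglech and Cd33 in particular are well-known microglial transcripts.

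The treated mice were 4 C57BL/6J animals that had received busulfan, which clears niches in the marrow and brain, followed by hematopoietic stem and progenitor cells (HSPCs) of male donors transduced with a lentiviral vector for GFP. Mice 2 (female) and 27 (male) were dosed intravenously (i.v.), and mice 4 (female) and 19 (male) intracerebroventricularly (i.c.v.). All 4 also received non-transduced total bone marrow i.v. at a later day, so GFP- cells of donor origin were possible in every animal. From each brain, CD45+ CD11b+ CX3CR1+ cells were sorted into a GFP+ library (microglia-like cells, MLCs) and a GFP- library (endogenous microglia), which gave 4 libraries per sort and 2 per sort and route. The methods place collection 12 to 13 months after dosing, whereas the labels give an age of 22 to 28 weeks. A treatment-naive C57BL/6J mouse, 8 to 12 weeks old by its labels, supplied 1 library each of cells sorted as microglia, blood leukocytes, neurons and astrocytes, with no replicate. The library sorted as neurons went against its label: 547 of its 575 cells (95.1%) carried at least 3 oligodendrocyte markers as their leading list, and 1 cell carried neuron markers. The labels name no litters or batches, and the p-values below measure the spread between the libraries of these mice.

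Levels were given as unique molecular identifiers (UMIs, each standing for 1 captured transcript) per 1000000 UMIs of the library (CPM), summed over the barcodes that showed 200 genes or more and a mitochondrial share of 10% or less. The treated libraries held 2266 to 4555 such cells and 4970758 to 16514669 UMIs, and the naive ones 341 to 1274 cells. The GFP+ library of mouse 2 stood apart in depth, with a median of 3499 UMIs per cell against 842 to 1308 in the other treated libraries, and the naive microglia were shallow, with a median of 425. EGFP transcripts reached 16.8 to 33.3 CPM in the GFP+ libraries and at most 0.153 CPM in the GFP- ones. Xist, which marks cells of female origin, stood at 3416 and 2890 CPM in the GFP- libraries of the female mice 2 and 4 and at 66.2 and 35.4 CPM in their GFP+ libraries. The GFP- library of the male mouse 19 held 120 CPM of Xist. Any pair of libraries shared at most 8 barcodes, and at most 0.348% of the smaller library's cells. In such sums fewer cells of a type and less RNA per cell cannot be told apart.

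Of the 6 genes, 5 lie on mouse chromosome 7 and Siglec1 on chromosome 2 (GRCm38, GENCODE annotation). Cd33-related members sit close together: Siglecg at chr7:43408204-43418358 on the plus strand, Cd33 at chr7:43524216-43544428 and Siglece at chr7:43651070-43660161, both on the minus strand. Siglech lies further along at chr7:55768178-55778925 on the plus strand, Cd22 before the group at chr7:30865402-30880342 on the minus strand, and Siglec1 at chr2:131069220-131086765 on the minus strand. Cd22 overlaps an antisense gene, Gm29439, that had 1 UMI in all 12 libraries. The other members overlap no annotated gene.

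The bases before the start of Siglech and Siglece are shown because Siglech was the 1 member that fell in GFP+ cells after i.v. dosing and Siglece the 1 that rose after both routes. They are the 250 bases before the start in RefSeq (GRCm38.p6), 5′ to 3′ in the direction of the gene, and capitals mark GAGGAA or its reverse complement TTCCTC, the core of many sites of the myeloid factor PU.1.
Siglech, chr7:55767934-55768183, plus strand: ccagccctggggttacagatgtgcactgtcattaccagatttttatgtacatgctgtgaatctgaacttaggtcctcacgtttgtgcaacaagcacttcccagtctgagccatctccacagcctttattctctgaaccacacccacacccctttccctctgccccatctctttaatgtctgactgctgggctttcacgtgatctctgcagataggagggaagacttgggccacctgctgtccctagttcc
Siglece, chr7:43660162-43660411, minus strand: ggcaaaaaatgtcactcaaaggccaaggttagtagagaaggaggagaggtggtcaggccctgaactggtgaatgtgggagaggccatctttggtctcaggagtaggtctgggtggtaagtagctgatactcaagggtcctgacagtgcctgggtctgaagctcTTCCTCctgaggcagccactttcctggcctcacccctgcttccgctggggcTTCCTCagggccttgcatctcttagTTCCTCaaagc
Siglece held 3 matches, all as TTCCTC, and Siglech none in this window, whose last 6 bases lie inside the annotated gene. Of the other members with an entry, Cd22 held 0 matches and Cd33 1. Siglecg had 2 windows, with 2 matches in 1 of them and 0 in the other. Among all 32851 windows of this length in the table, 23.3% held at least 1 match, and 5 of the 6 members had an entry. A match describes letters and not a bound site.

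The study asked how HSPC-derived MLCs differ from the endogenous microglia of the same brains and whether the route of dosing matters. Between the sorts, Siglece and Cd22 rose in GFP+ cells and none of the 6 members fell past the threshold when all 4 mice were fitted together. In that comparison edgeR's quasi-likelihood test, on counts scaled by trimmed mean of M-values (TMM), called 32.5% of the 11756 genes tested at a Benjamini-Hochberg adjusted p under 0.05, 16.6% as higher and 15.9% as lower, so 2 of 6 is near the background. After i.v. dosing 4 of the 6 passed (Siglece, Cd22 and Siglecg higher, Siglech lower), where 36.9% of genes were called, 19.9% as higher and 17% as lower. After i.c.v. dosing 2 of the 6 passed (Siglece higher, Siglecg lower), where 5.7% were called, 1.33% as higher and 4.37% as lower. The median log2 fold change of the 6 members over all mice was 0.59 and that of all genes 0.01. TMM sets the middle of the genes to no change. Against library totals alone, a scaling chosen after seeing the data, the median of all genes stood at -0.27, and the calls moved from 1951 higher and 1869 lower to 770 higher and 3803 lower. Within routes that shift was -0.39 after i.v. and -0.16 after i.c.v. dosing, with 1170 higher and 4455 lower in place of 2337 and 2004, and 98 and 821 in place of 156 and 514. All fold changes below are relative to the TMM middle, and for that reason they sit above the plain ratios of CPM.

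**Figure D1:**
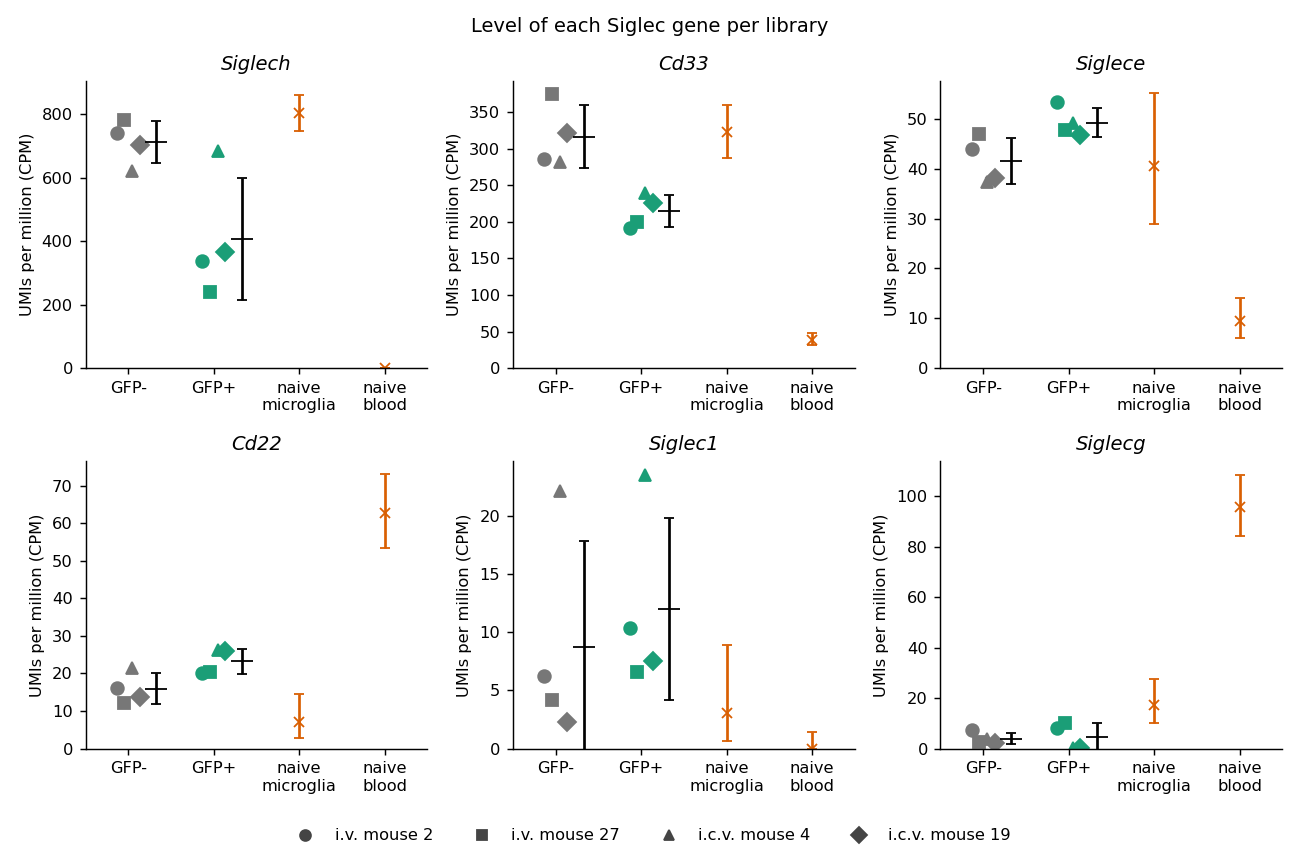
Level of each Siglec gene in UMIs per 1000000 (CPM, linear axes from 0) in the GFP- and GFP+ libraries of 4 treated mice, with marker shape for the mouse and black bars for mean ± SD (n = 4, bars cut at 0), and in naive microglia and blood (crosses, 1 library each, bars for 95% Poisson intervals). Siglech was lower in the GFP+ library of 3 mice but not of mouse 4, Cd33 was lower in all 4, and Siglecg was near 0 in the GFP+ libraries after i.c.v. dosing.

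Siglech encodes a receptor without an ITIM that signals through Tyrobp and is restricted largely to microglia and plasmacytoid dendritic cells. In GFP- libraries it stood at 741 CPM in mouse 2, 779.8 in mouse 27, 622 in mouse 4 and 704 in mouse 19. In GFP+ libraries it stood at 337 CPM in mouse 2, 239 in mouse 27, 683 in mouse 4 and 366 in mouse 19. The level was lower in the GFP+ library of 3 of 4 mice, by 2.20-, 3.27- and 1.92-fold in mice 2, 27 and 19, and slightly higher in mouse 4, whose GFP+ value lay inside the GFP- range. The group means were 406 ± 193 CPM in GFP+ and 712 ± 67.3 in GFP- (SD, n = 4).

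Over all mice the Siglech difference did not pass, with a log2 fold change of -0.54 (95% CI -1.10 to 0.01, adjusted p = 0.119, edgeR) and an exact two-sided permutation p of 0.0571 on CPM. After i.v. dosing it fell by 1.001 on the log2 scale (95% CI -1.61 to -0.39, adjusted p = 0.0195), a call lost without the GFP- library of mouse 2 (adjusted p = 0.0600), the GFP- library of mouse 27 (0.0708) or the GFP+ library of mouse 27 (0.0838). After i.c.v. dosing the log2 fold change was -0.18 (95% CI -0.78 to 0.42, adjusted p = 0.748). The difference between the routes, tested as an interaction, was -0.82 (95% CI -1.68 to 0.03, adjusted p = 0.306), and the effect was not shown to depend on route. The GFP+ library of mouse 4 decided the pooled value: without it the log2 fold change was -0.87 (adjusted p = 0.00614). The pooled difference also passed with cells thinned to 500 UMIs each (-0.73, adjusted p = 0.0353) and against library totals (-0.81, adjusted p = 0.0409).

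Markers of plasmacytoid dendritic cells, which also express Siglech, summed to 10.1 to 15.8 CPM in GFP+ and 12.1 to 29.4 CPM in GFP- libraries over 6 genes. Most of this was Cox6a2, with 300 UMIs in GFP+ libraries after i.v. dosing, 248 after i.c.v. dosing and 402 in GFP- libraries. Klk1 had no UMI in any treated library, Ccr9 and Pacsin1 stayed at 3.33 CPM or less, and Spib and Ly6d had 20 and 7 UMIs in GFP+ libraries after i.v. dosing and none after i.c.v. dosing. The summed level of the 11 microglia markers was lower in GFP+ (5525 to 10275 CPM) than in GFP- (11428 to 16751 CPM), with 8 of the 11 called lower, beside 15.9% of all genes. The part of these in the Siglech value over all cells was not tested. In cells with at least 3 microglia markers fitted alone, an alternative chosen after seeing the data, the log2 fold change after i.v. dosing was -0.71 (adjusted p = 0.0377).

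Cd33 encodes a receptor whose human counterpart carries an ITIM and lies at a locus associated with Alzheimer's disease. Its GFP- libraries held 286 CPM in mouse 2, 375 in mouse 27, 282 in mouse 4 and 321 in mouse 19, and the GFP+ libraries 192, 200.1, 239.9 and 226 CPM in the same order. Every GFP+ library was below every GFP- library, and Cd33 was the only member of the 6 without overlap. Among all genes tested 38.9% did not overlap. The means were 215 ± 22.4 CPM in GFP+ and 316 ± 43.1 in GFP- (SD, n = 4), and the exact permutation p was 0.0286, the smallest that 4 against 4 libraries allow. The TMM-scaled log2 fold change was -0.28 (95% CI -0.52 to -0.03) and did not pass the threshold over all genes (adjusted p = 0.0771, edgeR). The call depended on the scaling and the tool: against library totals it fell by 0.56 (adjusted p = 0.00943), and by 0.28 with DESeq2 (adjusted p = 0.0405). After i.v. dosing alone the log2 fold change was -0.35 (adjusted p = 0.0973). A fit that took each mouse as a replicate block gave -0.34 there (adjusted p = 0.0461).

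Siglece encodes an ITIM-bearing, Cd33-related receptor of myeloid cells that restrains phagocytic and oxidative responses. It stood at 43.9, 47.0, 37.3 and 38.2 CPM in the GFP- libraries of mice 2, 27, 4 and 19 and at 53.4, 47.7, 49.1 and 46.8 CPM in their GFP+ libraries. The GFP+ library was higher in 4 of 4 mice, by 1.22-, 1.01-, 1.32- and 1.22-fold in plain CPM, although the sorts overlapped narrowly. Siglece rose by a log2 fold change of 0.54 (SE 0.10, adjusted p = 0.00443, edgeR) over all mice, by 0.56 after i.v. dosing (adjusted p = 0.00757) and by 0.51 after i.c.v. dosing (adjusted p = 0.0444). On CPM the exact two-sided permutation p over all mice was 0.0571. The i.v. call was lost in 3 of 19 alternatives: against library totals (0.15, adjusted p = 0.352), with thinned cells (0.25, adjusted p = 0.608) and without both libraries of mouse 4 (adjusted p = 0.0560). The i.c.v. call was lost in 14 of 19 alternatives, among them each fit without 1 of the 4 i.c.v. libraries (adjusted p of 0.163 to 0.291). The interaction with route was 0.05 (95% CI -0.34 to 0.43). The size and the call rested on the scaling: against library totals the log2 fold change was 0.25 (adjusted p = 0.0968), and with every cell thinned to 500 UMIs it was 0.28 (adjusted p = 0.370).

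Cd22 encodes an ITIM-bearing receptor best known as a brake on B cell receptor signalling, and it is also found on microglia. Its GFP- libraries held 16.1, 12.3, 21.6 and 13.6 CPM in mice 2, 27, 4 and 19, and the GFP+ libraries 20.1, 20.5, 26.3 and 26.0 CPM. Each GFP+ library exceeded the GFP- library of the same mouse, by 1.25-, 1.67-, 1.22- and 1.91-fold, with an overlap only through the GFP- library of mouse 4. Cd22 rose by a log2 fold change of 0.81 (SE 0.20, adjusted p = 0.0138, edgeR) over all mice and by 0.93 after i.v. dosing (adjusted p = 0.0192), a call lost in 4 of 19 alternatives: without the GFP+ library of mouse 2 (adjusted p = 0.0527), without the GFP- library of mouse 27 (0.123), with thinned cells (0.175) and against library totals (0.0909). After i.c.v. dosing the log2 fold change was 0.73 (95% CI 0.19 to 1.27, adjusted p = 0.126), and 1.14 without the GFP- library of mouse 4 (adjusted p = 0.0429). The call over all mice held under each of the 19 alternatives, at an adjusted p of 0.0457 or less. On CPM the exact two-sided permutation p over all mice was 0.0857.

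B cells express Cd22 strongly, and their markers were measured in the same libraries. Of the 10 B cell markers Pax5 had no UMI in GFP+ libraries, Cd79a had no UMI after i.c.v. dosing and 21 after i.v. dosing, and at most 2 cells of any treated library reached 3 B cell markers with B cell as the leading list. The summed B cell list lay at 239 to 299 CPM in GFP+ and 274 to 329 CPM in GFP-, and most of it was Ighm and Bank1. The part of B cells in the Cd22 value was not tested. In cells with at least 3 microglia markers fitted alone the log2 fold change of Cd22 was 0.93 (adjusted p = 0.00453).

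**Figure D2:**
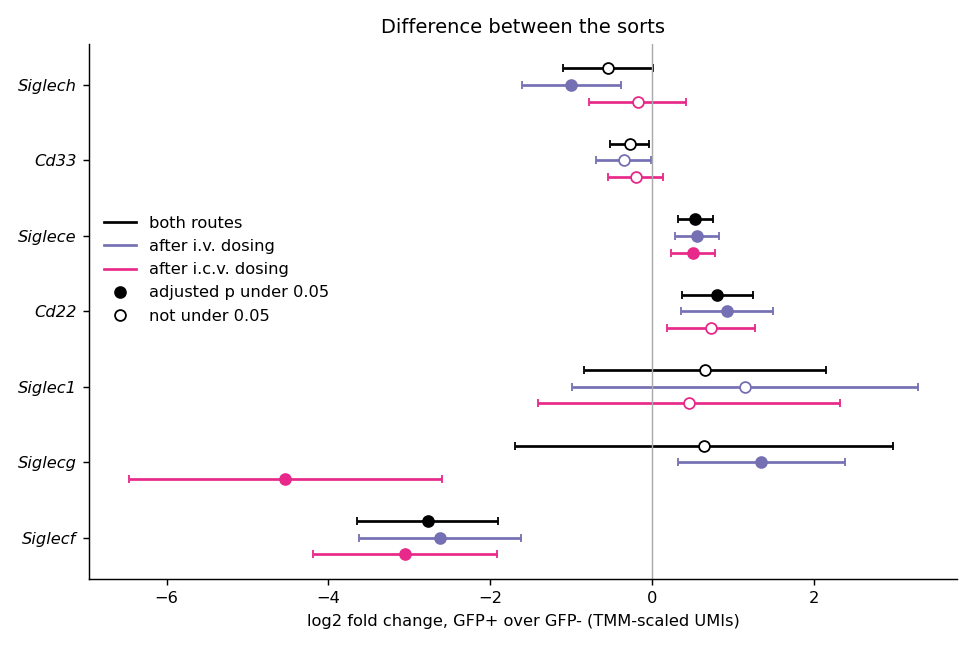
Log2 fold change of GFP+ over GFP- with 95% confidence intervals for the 6 members and Siglecf, over all 4 mice and within each route (edgeR, TMM scaling). Filled points passed an adjusted p under 0.05. Siglece and Siglecf were past the threshold in all 3 comparisons, and Siglecg lay on opposite sides of 0 after the 2 routes.

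Siglec1 encodes sialoadhesin, a long receptor without an ITIM that is found on tissue macrophages and is induced by type I interferon. Its GFP- libraries held 6.24, 4.14, 22.2 and 2.31 CPM in mice 2, 27, 4 and 19, and the GFP+ libraries 10.4, 6.59, 23.5 and 7.52 CPM. Both libraries of mouse 4 were above the other 6 libraries, which ranged from 2.31 to 10.4 CPM, and within that mouse the sorts differed by 1.06-fold against 1.59- to 3.25-fold in the other 3. Over all mice the log2 fold change was 0.65 (95% CI -0.84 to 2.14, adjusted p = 0.474, edgeR). With a replicate block for the mouse Siglec1 rose by 1.01 (adjusted p = 0.0440), without the GFP- library of mouse 4 by 1.83 (adjusted p = 0.0240), and without both libraries of mouse 4, an alternative chosen after seeing the data, by 1.33 (adjusted p = 0.0229). The direction was the same in 4 of 4 mice.

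Siglecg encodes an ITIM-bearing receptor of B cells and dendritic cells. It was the member that differed by route. Its GFP+ libraries held 8.30 CPM (137 UMIs) in mouse 2 and 10.0 CPM (99 UMIs) in mouse 27 after i.v. dosing, against 0.113 CPM in mouse 4 and 0.0917 CPM in mouse 19 after i.c.v. dosing, where each library held 1 UMI. The GFP- libraries held 7.24, 2.45, 3.58 and 2.31 CPM in mice 2, 27, 4 and 19. The pooled ratio of i.v. to i.c.v. GFP+ libraries was 88.3 (95% exact counting interval 24.2 to 733), which covers counting error only.

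In GFP+ cells Siglecg was higher after i.v. than after i.c.v. dosing, with a fitted log2 fold change of 6.44 (95% CI 4.76 to 8.11, adjusted p = 0.00697, edgeR), in a comparison where 2.36% of genes were called, 2.19% as higher and 0.179% as lower. It was the 1 member of 6 called there. The interaction of route and sort was 5.88 (95% CI 3.68 to 8.08, adjusted p = 0.0276), where 1.61% of genes were called, 1.51% as higher and 0.0936% as lower. Within routes Siglecg was higher in GFP+ after i.v. dosing (log2 fold change 1.35, adjusted p = 0.0456) and lower after i.c.v. dosing (-4.53, adjusted p = 0.0216). The i.v. call was lost in 14 of 18 alternatives, in 1 of them with the sign turned, the i.c.v. call in 6 of 18, the interaction in 8 of 18 and the route difference in GFP+ cells in 3 of 17. Leaving out the GFP+ library of mouse 27, the GFP- or GFP+ library of mouse 4 or the GFP+ library of mouse 19 put the interaction at an adjusted p of 0.0534, 0.123, 0.120 and 0.0885. Fitted values against libraries of 1 UMI depend on the prior count and are no bounds. Over all mice the log2 fold change was 0.64 (adjusted p = 0.663). Between routes in GFP- cells no member and none of the 11756 genes passed (0% called by edgeR, 974 at an unadjusted p under 0.05, 66 called by DESeq2), and Siglecg stood at 0.56 (95% CI -0.59 to 1.70).

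Several transcripts of other blood-derived cells moved with Siglecg across the GFP+ libraries. The summed level of 9 dendritic cell markers was 301 to 463 CPM after i.v. and 53.1 to 81.2 CPM after i.c.v. dosing, that of 8 monocyte markers 201 to 296 CPM against 2.38 to 3.21 CPM, and that of 11 neutrophil markers 1757 to 3486 CPM against 112 to 121 CPM. In the GFP- libraries the neutrophil list stood at 345 to 6430 CPM, highest in mouse 4, and the monocyte list at 22.2 to 182 CPM. The dendritic markers Flt3 and Ccr7 had 19 UMIs and 1 UMI in the GFP+ libraries after i.c.v. dosing and 236 and 1090 after i.v. dosing. Cd209a had the most UMIs of the list, with 385 after i.c.v. and 5445 after i.v. dosing. Batf3 differed less, with 377 and 995, and Itgae went the other way, with 32 and 22. Of the 7 dendritic markers tested, 3 were called higher after i.v. dosing in GFP+ cells and 0 lower, beside 2.19% and 0.179% of all genes. A further fit left out cells with at least 3 markers of another lineage. Monocyte and CAM markers were not used for this, so no cell was left out for them. Of the 84 and 53 GFP+ cells with a Siglecg UMI in mice 2 and 27, 48 and 41 had 3 dendritic markers and were left out. In that fit the i.v. difference of Siglecg between sorts was 0.06 (adjusted p = 0.936, edgeR) and the interaction 3.53 (adjusted p = 0.224, edgeR). The part of other lineages in these values was not tested. The route difference in GFP+ cells stayed past the threshold in that fit at 4.91 (adjusted p = 0.0230, edgeR). With microglia-marker cells alone that route difference was 4.02 (adjusted p = 0.172), and without the GFP+ library of mouse 4 it was 6.53 (adjusted p = 0.0745).

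To see which cells carried each member, cells were grouped by marker UMIs: a cell joined a class with at least 3 markers of its list and more than of any other list. None of the lists holds a member. These classes are ranges of a marker count and not cell types, deep cells reach them more easily, and no doublets were called. In each GFP- library 91.2 to 96.5% of cells had the microglia class and 1.01 to 1.75% the class of CNS-associated macrophages (CAMs, the macrophages of meninges, perivascular spaces and choroid plexus). In GFP+ libraries these shares were 53.2 to 71.2% and 4.01 to 7.90%, and 17.8 to 30.5% of cells reached no list. Of the 235, 179, 105 and 266 GFP+ CAM-class cells of mice 2, 27, 4 and 19, 96, 80, 57 and 105 had exactly 3 markers. Of the 8 CAM markers 3 were called higher in GFP+ and 1 lower, beside 16.6% and 15.9% of all genes. Mrc1 stood at 450 to 664 CPM in GFP+ against 140 to 348 in GFP-, and Cd163 at 8.60 to 16.4 against 19.5 to 39.2. The dendritic class held 73 cells (2.18%, 95% Clopper-Pearson interval 1.71 to 2.74) and 64 cells (2.82%, 2.18 to 3.59) in the GFP+ libraries of mice 2 and 27. It held 0 of 2621 and 0 of 3536 GFP+ cells in mice 4 and 19, with upper 95% Clopper-Pearson limits of 0.141% and 0.104%. In the GFP- libraries the dendritic class held 0 to 3 cells.

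After i.v. dosing Siglecg was concentrated in the dendritic class of the GFP+ libraries. There it reached 59.2 CPM (95% Poisson interval 45.3 to 76.0) in mouse 2 and 67.5 CPM (52.6 to 85.2) in mouse 27, against 2.57 and 1.22 CPM in the microglia class of the same libraries. Of the 84 GFP+ cells with a Siglecg UMI in mouse 2, 37 were in the dendritic class and 18 in the microglia class, and of the 53 in mouse 27, 34 and 5 were. The dendritic class supplied 44.5% and 70.7% of the Siglecg UMIs of the 2 libraries. Of its cells, 34 and 23 had exactly 3 markers, the fewest allowed. They were deep, with medians of 13811 and 16218 UMIs against 3499 and 1308 in the whole libraries. None of the Siglecg-bearing cells of mouse 2 and 1 of mouse 27 had 3 B cell markers. In the GFP- libraries the microglia class supplied most Siglecg UMIs, with 12 to 33 per library, or 1.66 to 7.05 CPM.

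Siglech ran the other way. In the dendritic class it was at 14.5 and 2.89 CPM in mice 2 and 27, against 414 and 325 CPM in the microglia class. In the CAM class it was lower than in the microglia class in 6 of 6 libraries with at least 50 CAM-class cells, by 1.85- to 8.08-fold, for example 92.4 against 746 CPM in the GFP- library of mouse 19. In the microglia class alone GFP- libraries held 771, 814, 662 and 746 CPM in mice 2, 27, 4 and 19, and GFP+ libraries 414, 325, 706 and 399 CPM. The order of the libraries in this class was therefore much like that over all cells, with the GFP+ library of mouse 4 among the GFP- ones.

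Siglec1 was higher in the CAM class than in the microglia class in 6 of 6 libraries, by 4.77- to 9.02-fold. In the GFP- library of mouse 19 the 8.27-fold difference rested on 3 UMIs in 2 CAM-class cells. With cells thinned to 500 UMIs Siglec1 was higher in 5 of 6. The largest values were those of mouse 4, at 123 CPM (95% Poisson interval 82.8 to 175) in GFP- and 126 CPM (81.4 to 186) in GFP+ CAM-class cells. Mouse 4 was also highest within the microglia class, at 18.1 and 19.7 CPM against 1.52 to 8.19 CPM in the other 6 libraries. Siglece was lower in the CAM class in 6 of 6 libraries, by 1.02- to 2.03-fold, with 46.6 against 47.3 CPM in the GFP+ library of mouse 19. Cd33 and Cd22 were lower in 5 of 6, and Cd33 in 4 of 6 with thinned cells. Cd22 stood at only 12.3 to 30.9 CPM in the CAM class, against 13.6 to 26.5 CPM in the microglia class of these libraries. These differences were not set against counting error, so small ones carry no direction. In the dendritic class Cd22 had 0 UMIs in mouse 2, where the floor of 3 counts was 2.91 CPM, and 1 in mouse 27 (0.964 CPM, 95% Poisson interval 0.0244 to 5.37). Cd33 stood there at 90.2 and 69.4 CPM in mice 2 and 27.

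**Figure D3:**
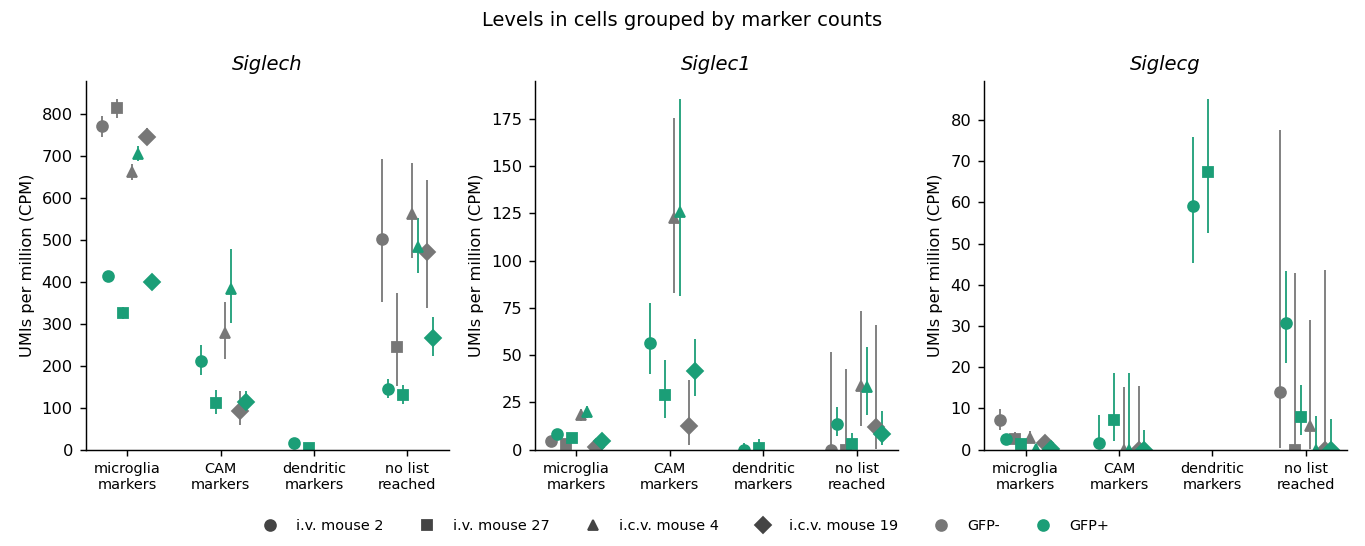
Siglech, Siglec1 and Siglecg in UMIs per 1000000 (CPM, linear axes from 0) in cells grouped by marker counts, 1 point per treated library with at least 50 cells in the class, bars for 95% Poisson intervals. Siglech was highest in the microglia class, Siglec1 in the CAM class and Siglecg in the dendritic class, which only the 2 GFP+ libraries after i.v. dosing filled.

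Cells with UMIs of at least 3 of 11 interferon-induced genes were set against the rest, since Siglec1 is an interferon-induced gene. Siglec1 was higher in the interferon-marked cells in 8 of 8 libraries, and Siglech lower in 8 of 8. In the GFP+ library of mouse 27 Siglec1 stood at 15.0 CPM (95% Poisson interval 9.71 to 22.2) in 154 such cells and 4.88 CPM (3.48 to 6.64) in the other 2112. In the GFP- library of mouse 4 it stood at 56.7 CPM (38.6 to 80.5) in 67 such cells and 19.7 CPM in the rest. Siglech in the GFP- library of mouse 27 was 294 CPM in interferon-marked cells and 799 CPM in the others. The summed level of the list was 220 to 451 CPM in GFP+ and 144 to 221 CPM in GFP-. Of its 11 genes 10 were called higher in GFP+, beside 16.6% of all genes. In mouse 4 the list was the highest of the GFP- libraries (220.6 CPM) and the lowest of the GFP+ ones (220.3 CPM), while Siglec1 was highest in both. Deep cells reach 3 interferon genes more easily, and in the GFP- libraries of mice 2, 27 and 19 the marked cells held 5, 2 and 4 Siglec1 UMIs.

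The share of cells with at least 1 UMI was compared after thinning each cell to 500 UMIs, which all treated cells and 482 of 1274 naive microglia reached. For Siglech the share was 12.1 to 25.4% in GFP+ and 28.5 to 32.3% in GFP- libraries, without overlap (exact permutation p = 0.0286). For Cd22 it was 0.867 to 1.41% against 0.659 to 0.860%, also without overlap (exact permutation p = 0.0286), though mouse 2 differed by 0.867 against 0.860%. Cd33 was detected in 11.7 to 13.8% of GFP+ and 13.4 to 18.5% of GFP- cells (exact permutation p = 0.0571). Siglece (1.87 to 2.88% against 1.84 to 2.77%) and Siglec1 (0.353 to 2.17% against 0.147 to 1.17%) overlapped, with exact permutation p of 0.371 and 0.314. Siglecg was found in 0 to 0.269% of GFP+ and 0.0459 to 0.150% of GFP- cells (exact permutation p = 0.543). How many of all genes lacked overlap in such shares was not measured, at this or another depth. At own depth, unthinned, the shares were 33.4 to 53.1% against 48.2 to 52.3% for Siglech, 39.1 to 49.3% against 31.9 to 35.9% for Cd33, 11.6 to 19.6% against 5.82 to 6.88% for Siglece, 6.59 to 8.04% against 1.76 to 3.38% for Cd22, 1.75 to 6.18% against 0.391 to 3.47% for Siglec1 and 0.0283 to 2.51% against 0.307 to 1.08% for Siglecg. At 1000 UMIs Cd33 was the only member without overlap (19.4 to 21.1% against 25.5 to 32.5%), having overlapped at 500 UMIs and separated the other way at own depth. Siglech overlapped there (20.7 to 43.2% against 43.2 to 48.6%). That depth kept 1810 of 4555 cells in the GFP- library of mouse 27 and 2561 of 3344 in the GFP+ library of mouse 2. The cells compared therefore changed along with the depth.

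For comparison, in the naive astrocyte library none of 1146 cells had a UMI of any member at 500 UMIs (upper 95% Clopper-Pearson limit 0.321% for each). In the naive library sorted as neurons 1 of 482 had a Cd22 UMI. Unthinned medians in these libraries were 3395 and 6937 UMIs. They held 4 and 0 cells of the microglia class, and therefore do not limit free RNA in the treated libraries, where its part in the shares was not tested. The Siglecg shares rest on 0 to 9 cells per library, and no direction was read from them.

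**Figure D4:**
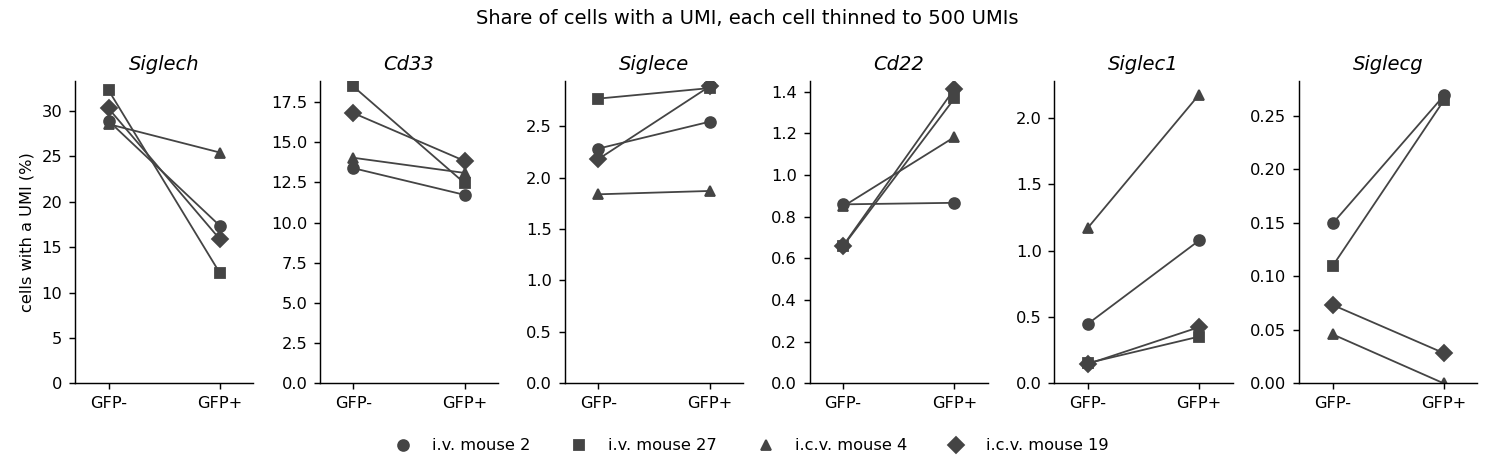
Share of cells with at least 1 UMI (percent, linear axes from 0) after thinning each cell to 500 UMIs, with a line joining the GFP- and GFP+ libraries of each mouse. The Siglech lines dropped least in mouse 4, Cd22 and Siglec1 were higher in GFP+ in 4 of 4 mice, and the Siglecg points rest on 0 to 9 cells per library.

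The naive libraries placed the members among cell populations, each as 1 library with a Poisson interval. Siglech stood at 803 CPM (748 to 861) in naive microglia, at 0 in blood and in the library sorted as neurons, and at 0.416 CPM in astrocytes. Ordered by mean it ran from naive microglia through GFP- after i.v. and i.c.v. dosing to GFP+ after i.c.v. and i.v. dosing. The interval of naive microglia covered the i.v. GFP- library of mouse 27, and GFP- and GFP+ after i.c.v. dosing overlapped. Cd33 was at 322 CPM (287 to 359) in naive microglia and 39.2 CPM (32.0 to 47.5) in blood, and Siglece at 40.5 CPM (28.9 to 55.1) and 9.50 CPM (6.15 to 14.0). Siglecg and Cd22 were higher in blood, at 95.8 CPM (84.3 to 108) and 62.7 CPM (53.5 to 73.1), than in naive microglia, at 17.2 CPM (10.0 to 27.6) and 7.09 CPM (2.85 to 14.6). The naive microglia library also held 9689 CPM of the neutrophil list, 294 of the monocyte list and 354 of the dendritic list, and its microglia class held 14.2 CPM of Siglecg. Within blood, cells of the B cell class held 253 CPM of Siglecg and 166 CPM of Cd22, and those of the monocyte class 5.94 CPM and 0. Siglec1 had 3 UMIs in naive microglia (3.04 CPM, 0.626 to 8.87) and none in blood.

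Other Siglec genes were Siglecf, Mag and Siglec15. Siglecf, a Cd33-related gene near Siglecg known mainly from eosinophils and lung macrophages, stood at 20.5, 9.04, 8.51 and 9.77 CPM in the GFP- libraries of mice 2, 27, 4 and 19 and at 2.24, 1.22, 1.02 and 0.917 CPM in the GFP+ ones. It fell by 2.77 on the log2 scale (SE 0.39, adjusted p = 0.00166, edgeR) over all mice, in 4 of 4 animals. It fell by 2.63 after i.v. dosing and fell by 3.06 after i.c.v. dosing, and the call held under all 19 alternatives. Naive microglia held 19.2 CPM (11.6 to 30.0) and blood no UMI. Mag, a Siglec of myelinating oligodendrocytes, stood at 2887 CPM in the naive library sorted as neurons, which held mostly cells with oligodendrocyte markers, and at 10.0 to 32.8 CPM in the treated libraries (log2 fold change -0.41, adjusted p = 0.178). Siglec15 had no UMI in any library.

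Of 15 tested genes that signal from Siglecs, 1 rose and 2 fell between the sorts and 12 did not pass, beside 32.5% called among all genes. Tyrobp, the adaptor of Siglech, rose by 0.54 (adjusted p = 0.0201), from 2097 ± 171 CPM in GFP- to 2507 ± 216 CPM in GFP+ (SD, n = 4). That call was lost with the replicate block and against library totals, in 5 of 19 alternatives in all. Inpp5d, a lipid phosphatase that opposes phosphoinositide kinase signalling, fell by 0.62 (adjusted p = 0.00799), from 459 ± 68.6 to 245 ± 44.9 CPM. Plcg2, a phospholipase downstream of Syk, fell by 0.47 (adjusted p = 0.0189). With cells thinned to 500 UMIs the calls of Inpp5d (adjusted p = 0.285) and Plcg2 were lost, the latter also without the GFP- library of mouse 27. The phosphatase Ptpn6 had a log2 fold change of 0.28 (adjusted p = 0.110). After i.v. dosing 5 of the 15 rose and 2 fell, beside 19.9% of all genes called higher there and 17% lower. Those that rose were Ptpn6 by 0.46 (adjusted p = 0.0326, edgeR), Tyrobp, its fellow adaptor Hcst and the kinases Fgr and Fyn. Inpp5d and Plcg2 fell.

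Among genes that make and place sialic acid, the ligand side of the pathway, sialyltransferases attach it to glycans. Of 12 tested, 2 rose, 4 fell and 6 did not pass, with a median log2 fold change of -0.10. Among all genes 16.6% were called higher and 15.9% lower. St3gal5, which makes the ganglioside GM3, fell by 2.22 (adjusted p = 0.00116), from 68.4 ± 15.8 CPM in GFP- to 12.0 ± 4.33 CPM in GFP+. St3gal2 fell by 1.33 (adjusted p = 0.000244), from 41.4 ± 7.58 to 13.5 ± 1.38 CPM, and St3gal3 by 0.60 (adjusted p = 0.0152). St8sia4, which builds polysialic acid, rose by a log2 fold change of 1.42 (adjusted p = 0.00545), from 64.5 ± 23.3 to 143 ± 23.2 CPM, and St3gal1 by 1.53 (adjusted p = 0.0135). These 5 genes were named for passing the test between the sorts. Their libraries did not overlap between the sorts, as was so for 38.9% of all genes tested.

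Of 6 genes of sialic acid synthesis, Cmah, the hydroxylase that converts the acetyl to the glycolyl form, rose by 1.56 (adjusted p = 0.00511), from 13.0 ± 5.95 CPM in GFP- to 32.5 ± 4.69 CPM in GFP+ (SD, n = 4), and 5 did not pass. Of 5 genes of sialidases and sialate handling, Casd1, a sialic acid O-acetyltransferase, fell by 0.55 (adjusted p = 0.00653), and 4 did not pass. Both counts stand beside 32.5% called among all genes between the sorts. Siglecf, Cmah, St3gal1, St8sia4, St3gal5 and St3gal2 kept their call under each of the 19 alternatives, whereas St3gal3 and Casd1 lost theirs with thinned cells (adjusted p = 0.0540 and 0.0681). Across these lists the sort difference within routes gave more calls after i.v. than after i.c.v. dosing, for example 3 higher and 5 lower against 0 and 2 for the sialyltransferases. Over all genes 36.9% were called after i.v. and 5.7% after i.c.v. dosing, and the difference in counts was not tested.

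**Figure D5:**
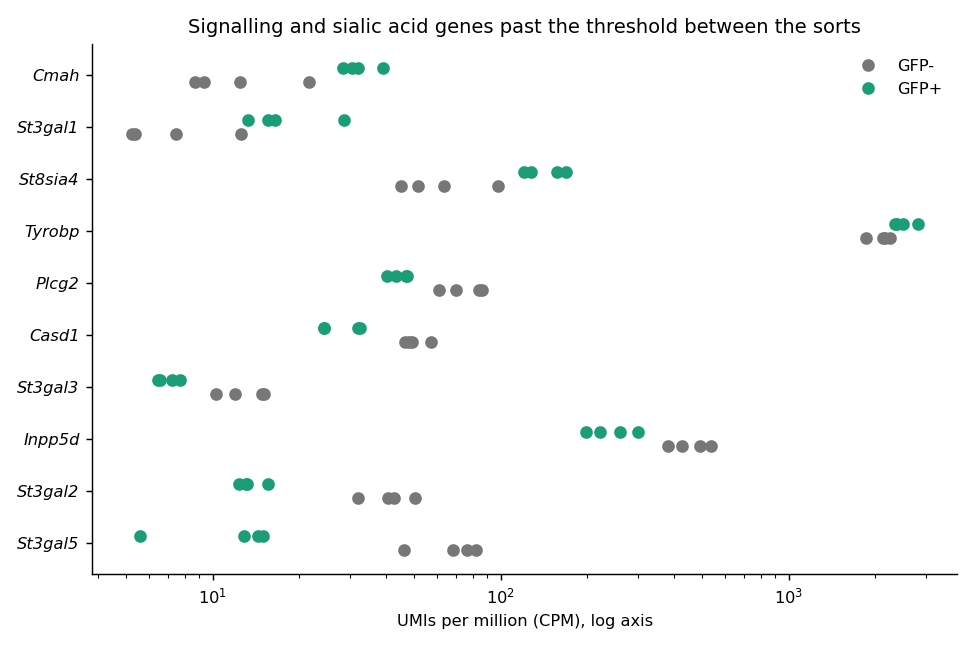
Level in UMIs per 1000000 (CPM, log axis) of the genes of Siglec signalling and sialic acid metabolism that passed the threshold between the sorts and were named by rule, 1 point per library (4 GFP-, 4 GFP+). St3gal5, St3gal2 and Inpp5d lay lower and Cmah, St3gal1 and St8sia4 higher in all GFP+ libraries.

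The genes whose levels ran most like each member were ranked by Pearson's r of log2(CPM + 1) over the 12 libraries, among 8863 genes with a mean of at least 10 CPM. The 12 points share naive cell types that mostly lack these genes, so r is a description with no test. Siglech ran with Gpr34 (0.998), F11r (0.995) and P2ry13 (0.995), and Cd33 with P2ry6, Il21r and Cx3cr1 (0.999 each). Siglece ran with C1qa (0.997), Fcgr1 (0.996) and Aif1 (0.996), though over the 8 treated libraries alone r was 0.200 for C1qa and 0.154 for Fcgr1. Cd22 ran with AB124611 (0.980), Msr1 (0.978) and Gpx1 (0.970). Siglec1 ran with Adam33 (0.956), Trpv4 (0.954) and Nfxl1 (0.916). Adam33 and Trpv4 were, like Siglec1, highest in both libraries of mouse 4, at 43.7 and 52.0 CPM and at 22.8 and 26.3 CPM. Siglecg ran with Ear2 (0.967), Spn (0.966) and Tspan32 (0.963). Ear2 stood at 22.9 and 26.5 CPM in the GFP+ libraries after i.v. dosing, and had 0.0917 CPM or less in those after i.c.v. dosing.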

How the data were processed

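Per the labels and the study's methods, the authors deposited UMI counts per gene and barcode from droplet 3′ single-cell RNA-seq, made with Cell Ranger 3.1.0 on mm10; the values are raw counts, not normalized. From these, barcodes with fewer than 200 genes or more than 10% mitochondrial UMIs were left out, no doublets were called, and UMIs were summed per library. The 8 treated libraries were tested with edgeR 4.0.16 (quasi-likelihood F test, TMM, filterByExpr) in R 4.3.3, with Benjamini-Hochberg adjustment over all 11756 genes. DESeq2 1.42.0 was an alternative. Exact two-sided permutation tests of CPM and shares used scipy 1.17.1, and the smallest p that 4 against 4 libraries allow is 0.0286. Poisson and Clopper-Pearson intervals and the floor of 3 counts cover counting error only. The edgeR script was tested on simulated counts. The GFP+ and GFP- libraries with 1 number come from 1 mouse, so the numbers pair them by design; the correlations of their deviations from the group means were 0.205, -0.275, -0.331 and 0.013 in mice 2, 27, 4 and 19. The members and lists were chosen with earlier results of these data known. The 6 members are all named, together with, per list of pathway genes, up to 3 in each direction with the largest change past the threshold.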

Additional observations from a re-analysis of the deposited data

Results flagged for a closer look

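Siglecg differed between the routes in how it changed with GFP status: the interaction term was 5.88 on the log2 scale (adjusted p = 0.0276, edgeR). The ratio of GFP- to GFP+ was 0.873 (95% exact counting interval 0.587 to 1.27) in mouse 2, which does not exceed counting error, 0.244 (0.134 to 0.417) in mouse 27, 31.6 (5.24 to 1291) in mouse 4 and 25.2 (3.98 to 1052) in mouse 19. The GFP+ libraries after i.c.v. dosing held 1 Siglecg UMI each. The dendritic, monocyte and neutrophil marker lists were higher in the GFP+ libraries after i.v. dosing, and their part in the interaction was not tested. With cells bearing 3 markers of another lineage left out, monocyte and CAM markers not used, the interaction was 3.53 (adjusted p = 0.224, edgeR). The cells left out included the dendritic class, which supplied 44.5% and 70.7% of the Siglecg UMIs in the GFP+ libraries of mice 2 and 27.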

How the results depend on the processing

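Of the 6 members, 2 were called between the sorts, and 4 without both libraries of mouse 4, while leaving out 1 library at a time gave 2 to 3. After i.v. dosing 4 were called, against 1 with cells thinned to 500 UMIs, 2 against library totals and 2 without mouse 4 in both sorts, and 1 to 4 without 1 library. After i.c.v. dosing 2 were called, against 1 with all deposited barcodes, DESeq2, upper-quartile scaling, no filter on low counts or library totals, 0 with thinned cells, with other lineages left out or without mouse 4 in both sorts, and 0 to 2 without 1 library. For the interaction 1 was called, against 0 under the stricter cell filter, with thinned cells, with other lineages left out, with microglia-marker cells alone or without mouse 4 in both sorts, and 0 to 1 without 1 library. For i.v. against i.c.v. in GFP+ cells 1 was called, against 0 with thinned cells, microglia-marker cells alone or without mouse 4 in both sorts, and 0 to 1 without 1 library. In GFP- cells it was 0 to 0. Siglecg was not tested with thinned cells. Where 1 library was left in a group, it was assumed to vary like the others.

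The shares of 2 members did not overlap at 500 UMIs, 1 at 1000 UMIs, 3 at own depth and 2 to 3 without 1 library. The matching counts over all genes were not measured, so these have no background. The Cd33 share turned to 9.48 points higher in GFP+ at own depth. Cd33 in blood was 30.9 CPM over all deposited barcodes against 39.2.

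Values that changed sign were these, with the cause not tested. Siglecg between sorts (0.64) was -0.31 with other lineages left out, -1.33 with microglia-marker cells alone and -0.028 to 1.06 without 1 library, and after i.v. dosing it was -0.83 with microglia-marker cells alone. Siglech after i.c.v. dosing ranged from -0.66 to 0.18 and Siglec1 from -0.53 to 2.91 without 1 library. Siglec1 between routes in GFP+ cells was 0.26 without mouse 4 in both sorts and ranged from -1.31 to 0.27 without 1 library.

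With the mouse as a replicate block, Siglecg between sorts was -0.33 (adjusted p = 0.836), Siglec1 was gained at 1.01 and Cd33 after i.v. dosing at -0.34. The block changed no other member's call, and gave 3 members between sorts, 5 after i.v., 2 after i.c.v. dosing and 1 for the interaction. Over all genes it called 1169 after i.c.v. dosing in place of 670 and 550 for the interaction in place of 189.

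Counts over all genes also moved by over 1.5 times elsewhere. With thinned cells they were 1260 of 9566 between sorts in place of 3820, 1260 after i.v. dosing in place of 4341, 369 after i.c.v. dosing, 49 for the interaction, 46 between routes in GFP+ cells in place of 278 and 4 in GFP- cells in place of 0. DESeq2 called 519 for the interaction, 448 in GFP+ cells and 66 in GFP- cells, and no filter on low counts 1031 after i.c.v. dosing, 698, 679 and 83 in the same order. The stricter cell filter gave 117 for the interaction. Leaving out other lineages gave 49 for the interaction and 98 in GFP+ cells, microglia-marker cells alone 1230 after i.c.v. dosing, 17 and 63, and leaving out mouse 4 in both sorts 64, 21 and 47. Leaving out 1 library at a time gave 2177 (without GFP- mouse 27) to 3791 between sorts, 2948 to 4309 after i.v. dosing, 81 (GFP+ mouse 19), 133 (GFP- mouse 19), 181 (GFP+ mouse 4) or 422 (GFP- mouse 4) to 798 after i.c.v. dosing, 38 (GFP- mouse 27), 40 (either library of mouse 4) or 87 (GFP- mouse 2) to 214 for the interaction, 34 (GFP+ mouse 4) or 147 (GFP+ mouse 19) to 262 between routes in GFP+ cells, and 0 to 23 (GFP- mouse 19) in GFP- cells, and the percentages of genes called move with them. Library totals, microglia-marker cells alone and leaving out mouse 4 in both sorts were chosen after seeing the data.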
